A study of Mus musculus with 14 samples.

Results

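Small intestinal organoids that lacked both Atg16l1 and Rnaseh2b in their epithelium (DKO) were compared with organoids that carried the floxed alleles without recombination (WT). Organoids are crypt-derived epithelial cultures that hold stem cells and their differentiated progeny. All mice were homozygous for floxed Rnaseh2b and floxed Atg16l1 in both of these groups. WT mice had no Cre recombinase. DKO mice carried 1 copy of Cre driven by the Villin promoter, which is active in intestinal epithelium, so that both genes were deleted in epithelial cells (Atg16l1/Rnaseh2bΔIEC). Both groups were grown in Intesticult medium and received no treatment. The labels and methods used here state neither the age and strain of the donor mice nor whether libraries came from separate mice or cultures, so p-values measure the spread between libraries. The comparison used 8 of the 14 libraries, 4 WT and 4 DKO. The remaining libraries were 4 from organoids with Villin-Cre and floxed Atg16l1 only (Atg16l1ΔIEC) and 2 from organoids with Villin-Cre and floxed Rnaseh2b only (Rnaseh2bΔIEC). The authors left out 2 further Rnaseh2bΔIEC samples because of their read counts. Of 18781 deposited genes, 12804 had a mean over the 14 libraries of at least 3.3 on the deposited log2 scale, which is about 10 on the linear scale, and were tested. The genes just inside the limit were Vwa3b at 3.321, Plekhs1 at 3.322 and Nup210l at 3.324. Those just outside were Tmigd1 at 3.319, Abcg1 at 3.318 and Shcbp1l at 3.317.

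Several properties of the libraries bear on every result. The library names place all 4 WT libraries and DKO libraries 3 and 4 in lane 1, and DKO libraries 1 and 2 with all single-knockout libraries in lane 2. In WT and in DKO organoids, libraries 1 and 2 deviated together from the group mean, and so did libraries 3 and 4. Correlations across 12425 autosomal genes lay between 0.51 and 0.85 within these pairs and between -0.89 and -0.76 across them. The pairs also differed in sex-linked transcripts in the same way in both genotypes. Xist was between 7.56 and 7.70 in libraries 1 and 2 and between 13.60 and 13.78 in libraries 3 and 4, while the Y-linked Ddx3y was between 9.33 and 9.69 in the former and between 6.04 and 6.20 in the latter. The sources used here do not say whether the libraries of a pair share a mouse or a culture line. The epithelial label held: the epithelial adhesion gene Epcam was between 14.73 and 14.76 in WT and between 14.64 and 14.75 in DKO organoids, and Vil1, the gene of the villin whose promoter drives Cre, was between 14.10 and 14.35 in all 8 libraries. Of 16 immune and stromal marker genes only the endothelial gene Pecam1 passed the filter, at 4.21 to 4.51 in WT and 4.25 to 4.37 in DKO organoids. The other 15 markers did not exceed 2.84 in any library, and the summed linear level of the whole list was between 37.7 and 42.6 in WT and between 38.0 and 40.1 in DKO organoids.

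RNase H2 removes ribonucleotides that DNA polymerases incorporate during replication, and its B subunit, encoded by Rnaseh2b, is needed for a stable complex. Unrepaired ribonucleotides cause DNA breaks, which activate the transcription factor p53 and with it cell cycle arrest and death programmes in the rapidly dividing crypt. ATG16L1 directs the lipidation of LC3 on the growing autophagosome membrane. In the small intestine it is best known for the granule export of Paneth cells, the antimicrobial cells of the crypt base, and for restraining interferon and cell death signalling in the epithelium.

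Among the tested genes, 1037 were higher and 1026 were lower in DKO than in WT organoids at a limma adjusted p under 0.05. These 2063 genes were 16.1% of those tested, with 8.1% higher and 8.01% lower. The share of higher genes among them depended on the scaling: with upper quartile scaling 1229 were higher and 888 lower, and with total scaling 1191 and 837. Libraries of the 2 genotypes did not overlap in 2856 genes (22.3%). Most differences were small. The median absolute log2 fold change of the called genes was 0.21, 175 reached 0.5 and 20 reached 1, of which 9 were higher and 11 lower. When the library pairs were fitted as a random effect, 85 genes (0.664%) passed, 36 higher and 49 lower, and all 85 were among the 2063. The call of every gene named below was therefore also examined in that stricter fit, and the genes that passed it are named as such. Besides the targeted genes, the gene lists with a member that passed it were the p53 targets (5 genes), the intestinal region list (2), the enterocyte list (1) and the NRF2 and glutathione list (1). Of the intestinal region list only Hoxb9 is given below as passing, at a level close to the filter. Hoxb8 of that list passed the filter through its WT libraries, so no call of it is support for a difference. Without WT library 1 or WT library 2 the count of changed genes fell to 1012 and 1001, and without DKO library 1 or DKO library 2 to 1289 and 1355. With lane as a covariate 666 genes were higher and 751 lower, and within lane 1 597 and 714. WT lay only in lane 1 and the single knockouts only in lane 2. In both fits the difference from WT is therefore that of DKO libraries 3 and 4. In the following, a gene "rose" or "fell" only where it passed the test over all 14 libraries, and the median log2 fold change of a gene list stands against a median of -0.002 over all genes tested. Counts of list members that rose or fell stand against 8.1% higher and 8.01% lower over all genes tested. In bulk RNA of this kind, fewer cells of a type and less RNA per cell cannot be told apart.

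Both targeted genes were lower in all DKO libraries than in any WT library. Atg16l1 (ENSMUSG00000026289) lies at chr1:87755870-87792428 on GRCm38. Its log2 level was 9.43, 9.54, 9.44 and 9.44 in WT libraries 1 to 4 and 8.37, 8.14, 8.57 and 8.47 in DKO libraries 1 to 4. The WT libraries were within 0.11 of each other, and DKO library 2 was the lowest. The log2 fold change was -1.07 (SE 0.12, adjusted p = 0.00032), which is 2.10-fold lower, and the adjusted p was 0.02 with pairs. Rnaseh2b (ENSMUSG00000021932) lies at chr14:62292589-62372992. Its level was 8.47, 8.41, 8.58 and 8.70 in WT and 7.92, 7.68, 7.79 and 7.84 in DKO libraries, a log2 fold change of -0.73 (SE 0.08, adjusted p = 0.00019, and 0.013 with pairs). For each gene the two-sided exact permutation p over the 8 libraries was 0.029, the smallest that 4 against 4 libraries can give. Transcript of both genes remained in DKO organoids, at a higher level than in the single knockouts. Atg16l1 was 1.46 higher (log2, adjusted p = 2e-05) in DKO than in Atg16l1ΔIEC organoids, and Rnaseh2b was 0.63 higher (adjusted p = 0.00074) in DKO than in Rnaseh2bΔIEC organoids. Counts per gene do not show whether the remaining transcripts contained the floxed exons.

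The p53 target list held 30 genes, all of them tested. Of these, 12 rose and none fell, where 8.1% of all genes tested were higher and 8.01% lower. The median log2 fold change was 0.13. Between 10 and 12 members passed whichever of the 8 libraries was left out. With lane as a covariate 10 were higher and 1 was lower, where 666 of all 12804 genes tested were higher and 751 lower. That fit takes the difference from DKO libraries 3 and 4 only. The genes that rose cover several arms of the p53 response: the p53 antagonist Mdm2, the cyclin G1 gene Ccng1, the pro-apoptotic genes Bax, Bbc3 and Pidd1, the mTORC1 inhibitor-like gene Ddit4l, the AKT inhibitor Phlda3, and Zmat3, Aen, Zfp365, Inka2 and Ano3.

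**Figure D1:**
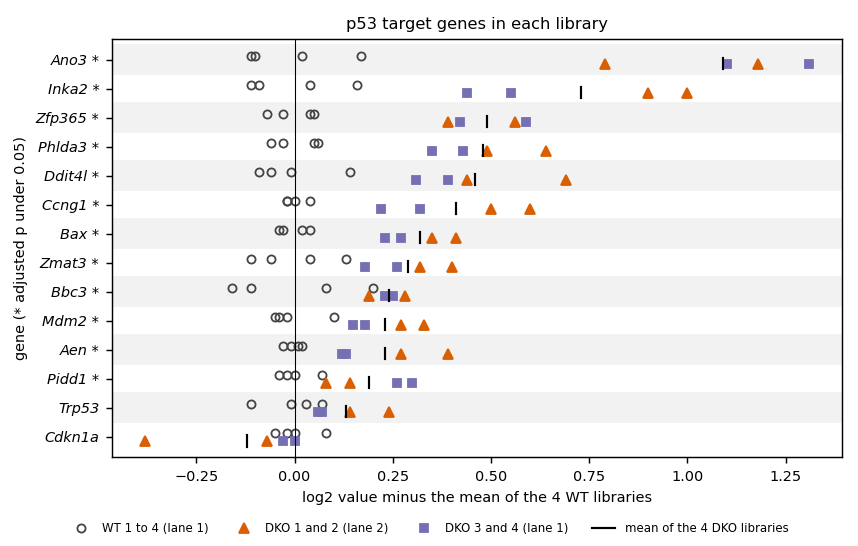
p53 target genes that rose, with Trp53 and Cdkn1a. Each point is the log2 value of a library minus the mean of the 4 WT libraries (x axis) for a gene (y axis), with open circles for WT, triangles for DKO libraries 1 and 2, squares for DKO libraries 3 and 4, a bar for the DKO mean and an asterisk for an adjusted p under 0.05. All DKO points of Ano3, Inka2, Phlda3 and Ccng1 lie to the right of the WT points, whereas those of Cdkn1a overlap them.

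Ano3, which encodes an anoctamin membrane protein, showed the largest rise of the list. Its level was 5.23, 5.24, 5.36 and 5.51 in WT and 6.52, 6.13, 6.65 and 6.44 in DKO libraries. The lowest DKO library was above the highest WT library, and the log2 fold change was 1.10 (SE 0.09, adjusted p = 8.4e-05, 0.0084 with pairs), or 2.14-fold. Inka2, which encodes an inhibitor of the kinase PAK4, was at 6.87, 6.99, 6.72 and 6.74 in WT and at 7.83, 7.73, 7.38 and 7.27 in DKO libraries (log2 fold change 0.73, SE 0.11, adjusted p = 0.002, 0.028 with pairs). DKO libraries 1 and 2, from lane 2, were the higher ones. Ccng1 had the same order, with 12.52, 12.46, 12.46 and 12.48 in WT and 13.08, 12.98, 12.80 and 12.70 in DKO libraries (log2 fold change 0.41, SE 0.06, adjusted p = 0.0021, 0.034 with pairs). Its difference was 0.27 within lane 1. Phlda3 was at 9.06, 8.98, 8.95 and 9.07 in WT and 9.65, 9.50, 9.44 and 9.36 in DKO libraries, a log2 fold change of 0.47 (adjusted p = 0.00062, 0.037 with pairs). Zfp365, a gene with a role in genome stability, was at 4.44 to 4.56 in WT and at 4.90 to 5.10 in DKO libraries (0.49, adjusted p = 0.00019, 0.024 with pairs). These 5 genes were the members that also passed with pairs.

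The other members that rose did so by less and did not pass with pairs. Ddit4l was at 6.5, 6.35, 6.30 and 6.27 in WT and 7.05, 6.80, 6.75 and 6.67 in DKO libraries, a log2 fold change of 0.46 (SE 0.08, adjusted p = 0.0033, 0.10 with pairs). Mdm2 was at 10.40, 10.42, 10.54 and 10.39 in WT and 10.77, 10.71, 10.62 and 10.59 in DKO libraries, so that the groups came within 0.05 of each other (0.23, SE 0.05, adjusted p = 0.0062, 0.14 with pairs). Bax rose by 0.32, Zmat3 by 0.29, Bbc3 by 0.24, Aen by 0.23 and Pidd1 by 0.19. Of these, Bbc3 lost its call without WT library 1 or 2 or any single DKO library, and Pidd1 when any 1 WT library or DKO library 2, 3 or 4 was left out. Cdkn1a, which encodes the cell cycle inhibitor p21, did not follow: it was at 12.93, 12.85, 12.83 and 12.80 in WT and 12.47, 12.78, 12.85 and 12.82 in DKO libraries, with DKO library 1 lowest (-0.12, SE 0.08, adjusted p = 0.33). Trp53, which encodes p53 itself, differed by 0.13 (adjusted p = 0.075).

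The promoters that hold the sequence p53 recognises are shown for members with and without a call. RefSeq promoters on GRCm38.p6 were matched for 23 of the 30 genes, and the 250 bases before the start were searched on both strands for the 10-base unit of the p53 response element. It occurred in 11 of the 23 (47.8%) and in 2341 of all 32851 promoters (7.13%). A list gene counted where any of its promoters held the unit, whereas the share over all is per promoter, so the shares are not alike. Of these 11 genes 6 rose and 5 were not called. Each sequence is read 5′ to 3′ on the strand of its gene, and capitals mark the unit. The first 6 belong to genes that rose and the last 5 to genes without a call.
Inka2, chr3:105705347-105705416, plus strand: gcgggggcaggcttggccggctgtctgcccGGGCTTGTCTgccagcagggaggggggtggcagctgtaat
Ddit4l, chr3:137623552-137623621, plus strand: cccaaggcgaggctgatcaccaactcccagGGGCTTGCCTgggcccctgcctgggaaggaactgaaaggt
Ccng1, chr11:40755432-40755501, minus strand: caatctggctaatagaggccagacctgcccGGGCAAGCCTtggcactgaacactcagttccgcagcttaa
Bax, chr7:45467060-45467129, minus strand: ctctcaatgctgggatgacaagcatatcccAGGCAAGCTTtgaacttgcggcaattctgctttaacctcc
Mdm2, chr10:117710905-117710974, minus strand: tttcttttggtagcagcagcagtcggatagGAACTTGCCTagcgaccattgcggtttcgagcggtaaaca
Aen, chr7:78895907-78895976, plus strand: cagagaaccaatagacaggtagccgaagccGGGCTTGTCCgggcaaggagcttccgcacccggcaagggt
Cdkn1a, chr17:29090876-29090967, plus strand: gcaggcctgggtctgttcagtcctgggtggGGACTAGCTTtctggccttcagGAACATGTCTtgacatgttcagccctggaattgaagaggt
Trp53, chr11:69580254-69580323, plus strand: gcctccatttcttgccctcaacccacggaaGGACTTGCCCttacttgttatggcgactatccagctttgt
Sesn1, chr10:41887236-41887305, plus strand: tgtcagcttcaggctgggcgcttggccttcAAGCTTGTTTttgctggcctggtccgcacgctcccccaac
Ei24, chr9:36797335-36797374, minus strand: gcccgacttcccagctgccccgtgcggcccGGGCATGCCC
Polk, chr13:96519379-96519437, minus strand: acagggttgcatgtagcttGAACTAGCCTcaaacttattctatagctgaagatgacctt
The site begins 81 bases before the start in Inka2, 90 in Ddit4l, 185 in Ccng1, 201 in Bax, 186 in Mdm2 and 121 in Aen. Cdkn1a, with no call, holds 2 sites between 73 and 42 bases before its start. The other genes without a call hold 1 site each, and their log2 fold changes were 0.13 (Trp53), -0.09 (Sesn1), 0.12 (Ei24) and -0.03 (Polk). A match describes the letters of the window and shows neither binding nor a cause of the transcript level.

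The p53 targets were also compared directly with the single knockouts. Here and below, every comparison with a single knockout uses DKO libraries that were also compared with WT. In every fit with pairs the Rnaseh2bΔIEC libraries form a single pair, so a call against them does not rest on replicated pairs of that genotype. Ano3 was at 5.24 to 5.40 in the 4 Atg16l1ΔIEC libraries and at 6.31 and 6.37 in the 2 Rnaseh2bΔIEC libraries. The DKO level was 1.10 above Atg16l1ΔIEC (SE 0.09, adjusted p = 2e-05) and did not differ detectably from Rnaseh2bΔIEC (0.10, 95% interval -0.15 to 0.34). Over all genes, 3218 (25.1%) differed between DKO and Atg16l1ΔIEC organoids and 3262 (25.5%) between DKO and Rnaseh2bΔIEC organoids. Against Atg16l1ΔIEC 1616 of all 12804 genes tested were higher and 1602 lower, with pairs 245 and 233, and within lane 2 1015 and 1058. Against Rnaseh2bΔIEC 1417 were higher and 1845 lower, with pairs 193 and 499, and within lane 2 1605 and 2092. List counts against a single knockout, here and below, stand beside these. Of the 30 p53 targets, 15 were higher and 1 was lower in DKO than in Atg16l1ΔIEC organoids, with a median of 0.18, and with pairs 5 were higher and none was lower. Against Rnaseh2bΔIEC organoids 4 were higher and 1 was lower, with a median of 0.08. Within lane 2, which holds both Rnaseh2bΔIEC libraries and DKO libraries 1 and 2, 9 were higher and 3 were lower, and with pairs none passed. Inka2 was 0.21 (-0.09 to 0.50) and Ccng1 0.13 (-0.04 to 0.30) above Rnaseh2bΔIEC, intervals that include 0, and Zfp365 was 0.21 (0.08 to 0.34, adjusted p = 0.02) above it.

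Of 21 DNA replication genes 9 rose and none fell, and none of these calls was kept with pairs. The log2 fold change was above 0 in all 21, with a median of 0.18. The genes that rose encode the replicative helicase subunits Mcm2, Mcm3, Mcm4, Mcm5 and Mcm7, the licensing factor Cdt1, the primase subunit Prim1, thymidylate synthase (Tyms) and the small ribonucleotide reductase subunit Rrm2. Rrm2 was at 11.22, 11.14, 11.14 and 11.13 in WT and at 11.46, 11.42, 11.41 and 11.42 in DKO libraries (0.27, SE 0.03, adjusted p = 0.00058, 0.057 with pairs). It kept its call whichever library was left out. The other calls rested on few libraries: Mcm5 was at 11.13, 11.17, 11.30 and 11.34 in WT and 11.82, 11.59, 11.42 and 11.44 in DKO libraries (0.33, adjusted p = 0.027). Only 1 member passed without WT library 1, WT library 2 or DKO library 1, 3 without DKO library 2 and 5 without WT library 3. With lane as a covariate 1 member passed and the median was 0.11.

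Mitotic genes did not rise with the replication genes. Of 20 members none rose and 1 fell, with a median of -0.01. The proliferation marker Mki67 was at 13.14, 13.06, 13.05 and 13.05 in WT and at 13.18, 13.02, 13.08 and 13.11 in DKO libraries, and the groups overlapped (0.02, adjusted p = 0.77). Top2a, the topoisomerase of dividing cells, differed by -0.09 (adjusted p = 0.13), and the spindle gene Nusap1 fell by 0.19 (adjusted p = 0.0056). Of 19 DNA damage signalling and repair genes 4 rose and none fell (21.1% called, against 16.1% of all genes tested). Among those that rose were the damage kinase gene Atr (0.25), the Fanconi anaemia gene Fanca (0.25) and the single-strand binding subunit Rpa1 (0.21). Of these 19 genes, 1 passed without WT library 1 and 2 without WT library 2, and 1 kept its call whichever library was left out. Atm differed by 0.06 (adjusted p = 0.66).

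The partner subunits of RNase H2 did not change detectably. Rnaseh2a, the catalytic subunit, was at 10.31 to 10.40 in WT and at 10.29 to 10.43 in DKO libraries, and Rnaseh2c differed by 0.11 (adjusted p = 0.071). Among 11 tested genes of ribonucleotide processing, 3 rose and none fell. They were the flap endonuclease gene Fen1 (0.24), the catalytic subunit of the leading-strand polymerase Pole (0.19) and the RNA:DNA hybrid nuclease Rnaseh1 (0.15). Of the 11, 1 passed without WT library 1, 2 or 4 or DKO library 1, and 2 without WT library 3 or DKO library 2 or 3.

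Of 34 autophagy genes 2 rose and 7 fell, and the median was -0.01. Map1lc3a, an LC3 gene, was at 7.59, 7.64, 7.53 and 7.58 in WT and at 7.14, 7.36, 7.41 and 7.33 in DKO libraries (-0.28, SE 0.06, adjusted p = 0.01). The receptor gene Optn fell by 0.27, Calcoco1 by 0.23, the lipid scramblase gene Atg9a by 0.17, the receptor gene Nbr1 by 0.13, Gabarap by 0.11 and Atg12, part of the conjugate that ATG16L1 binds, by 0.10. Atg2a rose by 0.17 and Atg101 by 0.16. The other partner, Atg5, was at 10.28 to 10.39 in both groups (0.01, adjusted p = 0.88), and Atg7 differed by 0.10 (adjusted p = 0.13). None of the 34 passed with pairs. Between 2 and 8 members passed when 1 library was left out, and the lowest counts were 2 lower and none higher without WT library 1, and 3 lower and none higher without DKO library 1. WT library 2 left 1 higher and 2 lower.

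Of 21 lysosomal genes 2 rose and 5 fell, with a median of -0.06. Hexa, a subunit of beta-hexosaminidase, was at 12.13, 12.11, 11.92 and 11.91 in WT and 11.53, 11.58, 11.69 and 11.81 in DKO libraries (-0.36, SE 0.07, adjusted p = 0.0053, 0.057 with pairs), so that the pairs were in opposite order in the 2 groups. The sialidase gene Neu1 fell by 0.35, the saposin precursor Psap by 0.16 and the cholesterol transfer gene Npc2 by 0.14. The beta-glucuronidase gene Gusb rose by 0.26 and the protease gene Ctsd by 0.10. The membrane genes Lamp1 and Lamp2 each differed by -0.05 (adjusted p = 0.51 and 0.40).

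Absorptive enterocyte genes were in part lower. Of 21 members 1 rose and 4 fell (23.8% called, against 16.1% of all genes tested), with a median of -0.19. Within lane 1, 8 fell and none rose, where 714 of all 12804 genes tested were lower and 597 higher. The median of the list within lane 1 was -0.28. Dpp4, a brush border peptidase gene, was at 12.35, 12.31, 12.50 and 12.43 in WT and 11.97, 12.08, 11.99 and 12.04 in DKO libraries (-0.38, SE 0.05, adjusted p = 0.0012, 0.041 with pairs). It was the list member that also passed with pairs. The disaccharidase gene Sis fell by 0.57 (adjusted p = 0.039) and the sodium-glucose transporter gene Slc5a1 by 0.48 (adjusted p = 0.042), and for both the groups overlapped. Sis lost its call without WT library 1, 2 or 3 or DKO library 1, 3 or 4, and Slc5a1 without WT library 1 or 2 or DKO library 1, 3 or 4. Of the whole list, 2 members passed without WT library 2, and 3 did without WT library 1, WT library 3, DKO library 3 or DKO library 4.

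**Figure D2:**
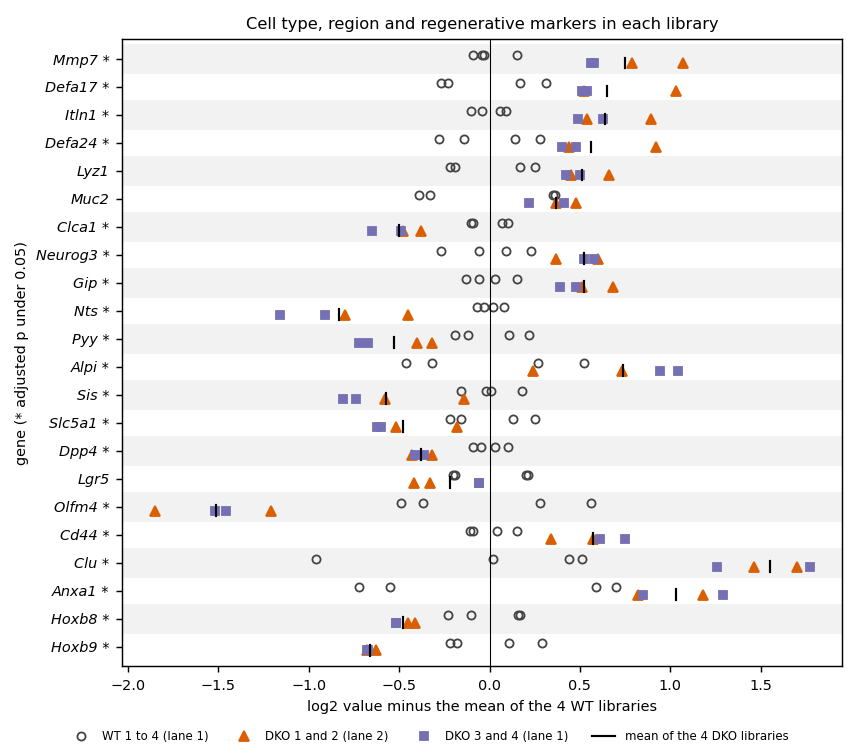
Genes of epithelial cell types, region and regeneration, drawn as in the plot of p53 targets: log2 value minus the WT mean (x axis) by gene (y axis), open circles for WT, triangles for DKO libraries 1 and 2, squares for DKO libraries 3 and 4, bars for the DKO mean. Nts, Dpp4 and Hoxb9 were lower and Itln1 was higher in every DKO library than in any WT library.

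Intestinal alkaline phosphatase genes went the other way. Akp3, the duodenal enzyme gene, showed the largest rise of all genes whose libraries did not overlap. Its level was 8.97, 8.69, 7.47 and 7.57 in WT and 9.58, 9.82, 10.50 and 10.27 in DKO libraries (1.86, SE 0.30, adjusted p = 0.0023, 0.017 with pairs), which is 3.64-fold. The WT pairs were more than 1 apart, with libraries 3 and 4 lower, and in DKO organoids libraries 3 and 4 were the higher ones. Alpi was at 11.20, 10.95, 10.22 and 10.36 in WT and 10.92, 11.41, 11.72 and 11.62 in DKO libraries. Its groups overlapped (0.73, SE 0.22, adjusted p = 0.037), and its call was lost without WT library 2, 3 or 4 or DKO library 2, 3 or 4. Akp3 was also 1.13 above WT in Rnaseh2bΔIEC organoids (9.41 and 9.21, adjusted p = 0.035) and was not called in Atg16l1ΔIEC organoids (8.02 to 8.16, difference -0.10).

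Both phosphatase genes are neighbours of Atg16l1. Akp3 lies 631 kb and Alpi 658 kb from its start. Of 22 tested genes that start within 1 Mb of Atg16l1, 9 (40.9%, against 16.1% of all genes tested) were called, 6 higher (Akp3, Alpi, Arl4c, Ugt1a6b, Ugt1a7c and Ugt1a8) and 3 lower (Efhd1, Hjurp and Spp2). With pairs 2 passed, Akp3 and Spp2. The Ugt1a genes share their last exons, so their counts cannot be assigned with certainty. Of 12 tested neighbours of Rnaseh2b, 1 was called (Fam124a, lower, at a level close to the filter). Both groups were homozygous for both floxed alleles. Whether DNA linked to these loci differed between the groups was not tested.

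Enterocyte genes were also compared with the single knockouts. Of all 12804 genes tested, 1845 were lower in DKO than in Rnaseh2bΔIEC organoids, 499 with pairs and 2092 within lane 2. Against Atg16l1ΔIEC organoids 1602 were lower, 233 with pairs and 1058 within lane 2. Against Rnaseh2bΔIEC organoids, 18 of 21 enterocyte genes were lower in DKO organoids, with a median of -1.08, and 12 were lower with pairs. Within lane 2, 19 were lower and the median was -0.85. Against Atg16l1ΔIEC organoids 7 were lower, with a median of -0.41, and 3 were lower with pairs. Within lane 2 1 was higher and 3 were lower, and the median of -0.28 equalled that against WT within lane 1. For Sis, the difference of DKO from Rnaseh2bΔIEC organoids (15.76 and 16.03) was -1.15 (SE 0.21, adjusted p = 0.0023, 0.034 with pairs) and that from Atg16l1ΔIEC organoids (15.03 to 15.83) was -0.74 (SE 0.17, adjusted p = 0.0089, 0.091 with pairs). These comparisons use the same DKO libraries as the comparison with WT.

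Paneth cell genes were in part higher. Of 15 tested members 5 rose and none fell, with a median of 0.26. Mmp7, which encodes the protease that activates Paneth cell defensins, was at 8.65, 8.70, 8.89 and 8.71 in WT and 9.81, 9.53, 9.32 and 9.30 in DKO libraries (0.75, SE 0.19, adjusted p = 0.021). Itln1, the intelectin gene, was at 14.18, 14.15, 14.05 and 13.99 in WT and at 14.98, 14.63, 14.72 and 14.58 in DKO libraries (0.64, SE 0.12, adjusted p = 0.0066), with every DKO library above every WT library. The alpha-defensin genes Defa17, Defa24 and Defa26 rose by 0.65, 0.56 and 0.40. Defensin genes are near-identical copies, so their counts are uncertain one by one. Lyz1, the lysozyme gene, was at 12.25, 12.28, 12.72 and 12.64 in WT and 13.13, 12.92, 12.97 and 12.89 in DKO libraries and was not called (0.50, adjusted p = 0.089). None of the 15 passed with pairs. Without WT library 1, WT library 2 or DKO library 1, 2 members passed, and 3 did without DKO library 2. Itln1 was also 0.94 above Atg16l1ΔIEC (adjusted p = 0.00043) and 0.95 above Rnaseh2bΔIEC organoids (adjusted p = 0.0012).

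Of 12 tested goblet cell genes 3 rose, 1 fell and the median was 0.26. The kallikrein gene Klk1 rose by 0.34, Spdef, a transcription factor gene of goblet and Paneth cells, by 0.27 and the receptor component gene Ramp1 by 0.26. Clca1, a secreted protease of the mucus, was at 9.16, 8.99, 9.19 and 9.0 in WT and 8.61, 8.71, 8.60 and 8.44 in DKO libraries (-0.50, SE 0.10, adjusted p = 0.0078). No member rose without WT library 1 or 2 or DKO library 1, and 1 did without DKO library 2, 3 or 4. The mucin gene Muc2 differed by 0.37 (adjusted p = 0.11) and the trefoil factor gene Tff3 by 0.18 (adjusted p = 0.26). Against Atg16l1ΔIEC organoids 10 of the 12 genes were higher in DKO organoids, with a median of 0.44, and 3 were higher with pairs. Against Rnaseh2bΔIEC organoids, whose libraries form a single pair, 9 were higher, with a median of 0.66, and 5 were higher with pairs. Within lane 2 the counts were 9 and 10. Clca1, which fell against WT, was 0.41 above Atg16l1ΔIEC (7.99 to 8.47) and 1.18 above Rnaseh2bΔIEC organoids (7.55 and 7.26).

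Enteroendocrine genes moved in both directions. Of 20 members 2 rose and 4 fell, with a median of -0.05. Neurog3, the transcription factor gene that starts the lineage, was at 7.71, 7.92, 8.07 and 8.21 in WT and 8.58, 8.35, 8.56 and 8.50 in DKO libraries (0.52, SE 0.13, adjusted p = 0.02), and the hormone gene Gip rose by 0.52. Neither was called without WT library 1, WT library 2 or DKO library 1. Among the genes that fell, Nts, the neurotensin gene, was at 7.66, 7.57, 7.61 and 7.72 in WT and at 7.19, 6.84, 6.48 and 6.73 in DKO libraries (-0.83, SE 0.12, adjusted p = 0.0013, 0.055 with pairs). Pyy, the peptide YY gene, was at 5.46, 5.53, 5.87 and 5.76 in WT and 5.33, 5.25, 4.98 and 4.93 in DKO libraries (-0.53, SE 0.10, adjusted p = 0.0054, 0.055 with pairs). The granule gene Scg2 fell by 0.24 and the transcription factor gene Pax6 by 0.22. Of the 20 genes, 2 passed without WT library 1 and 3 without WT library 2. The general markers Chga and Chgb each differed by 0.26 and were not called (adjusted p = 0.10 and 0.29). Of 9 tested tuft cell genes 1 rose (Ptgs1, by 0.13) and none fell, and Dclk1 and Trpm5 each differed by -0.19 without a call.

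Genes that mark position along the intestine fell in part. Of 14 tested members 5 fell and none rose, with a median of -0.29. Hoxb9, a homeobox gene of posterior identity, was at 3.81, 3.85, 4.32 and 4.14 in WT and at 3.35, 3.40, 3.35 and 3.36 in DKO libraries (-0.66, SE 0.09, adjusted p = 0.00094, 0.012 with pairs). Hoxb8 was at 3.42, 3.55, 3.82 and 3.81 in WT and 3.20, 3.24, 3.13 and 3.13 in DKO libraries (-0.48). All DKO libraries of Hoxb8 were below the level of the filter, which it passed through the WT libraries, so its call, 1 of the 5, is no support for a difference. Hoxb9 and Hoxb8 lie in the range where differences on the deposited scale are compressed. Hoxb7 fell by 0.30 and Hoxb6 by 0.28. Neither the proximal factor gene Gata4 (-0.06, adjusted p = 0.35) nor Onecut2 (0.31, adjusted p = 0.39) was called. Hoxb9 was at 3.43 to 3.60 in Atg16l1ΔIEC and at 3.35 and 3.37 in Rnaseh2bΔIEC organoids. The difference of DKO from Rnaseh2bΔIEC organoids was 0.00 (95% interval -0.23 to 0.24). Of the list, 3 members fell without WT library 2 or DKO library 3. The segment of intestine from which each line was derived is not given in the sources used here.

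Stem cell genes moved in both directions. Of 15 members 2 rose and 2 fell, with a median of -0.03. Olfm4, a Notch-dependent gene of crypt base columnar cells, lies at chr14:79984081-80023139. It was at 10.74, 10.86, 11.51 and 11.79 in WT and 10.02, 9.38, 9.71 and 9.77 in DKO libraries (-1.51, SE 0.28, adjusted p = 0.0049, 0.13 with pairs), which is 2.84-fold lower. It kept its call whichever library was left out, and its difference from WT was -1.22 in Atg16l1ΔIEC organoids (adjusted p = 0.0085) and -0.16 in Rnaseh2bΔIEC organoids (adjusted p = 0.76). The BMP co-receptor gene Rgmb fell by 0.35, the adhesion receptor gene Cd44 rose by 0.57 and the RNA-binding protein gene Msi1 by 0.34. Lgr5, the R-spondin receptor gene that defines crypt base stem cells, was at 12.93, 12.92, 12.53 and 12.52 in WT and at 12.39, 12.30, 12.66 and 12.66 in DKO libraries, and the groups overlapped (-0.22, adjusted p = 0.17). The DKO level of Lgr5 was 0.62 above Atg16l1ΔIEC (11.82 to 11.94; adjusted p = 0.0018, 0.014 with pairs) and 0.75 above Rnaseh2bΔIEC organoids (11.65 and 11.87; adjusted p = 0.0019, 0.014 with pairs). Of the 15 stem cell genes, 10 were higher in DKO than in Atg16l1ΔIEC organoids, with a median of 0.35, and 5 were higher with pairs. Among 8 tested Notch pathway genes 1 rose (Notch2, by 0.24) and 1 fell (Olfm4, which both lists hold), and Hes1 differed by -0.33 (adjusted p = 0.21).

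Of 13 tested regenerative and YAP target genes 2 rose and none fell (15.4% called, against 16.1% of all genes tested), with a median of 0.13. None passed with pairs, and 1 passed without WT library 1 or DKO library 2, 3 or 4. Clu, the clusterin gene that marks revival stem cells after injury, lies at chr14:65968483-65981547. It was at 6.88, 7.86, 8.28 and 8.35 in WT and at 9.54, 9.30, 9.61 and 9.10 in DKO libraries (1.54, SE 0.32, adjusted p = 0.0082, 0.13 with pairs), which is 2.92-fold. WT library 1 was the lowest, and the lowest DKO library was 0.75 above the highest WT library. Clu was also 1.69 above Atg16l1ΔIEC (adjusted p = 0.0031) and 1.65 above Rnaseh2bΔIEC organoids (adjusted p = 0.009). Anxa1, the annexin A1 gene, rose by 1.03 (adjusted p = 0.049), but lost its call without WT library 1 or 2 or any single DKO library. Ly6a, which encodes the fetal-type marker Sca-1, was at 7.25, 7.12, 8.36 and 8.11 in WT and 7.89, 8.06, 9.22 and 8.88 in DKO libraries. In both genotypes libraries 3 and 4 were the higher ones, and the difference of 0.81 was not called (adjusted p = 0.10). It was 1.34 with lane as a covariate (adjusted p = 0.018).

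**Figure D3:**
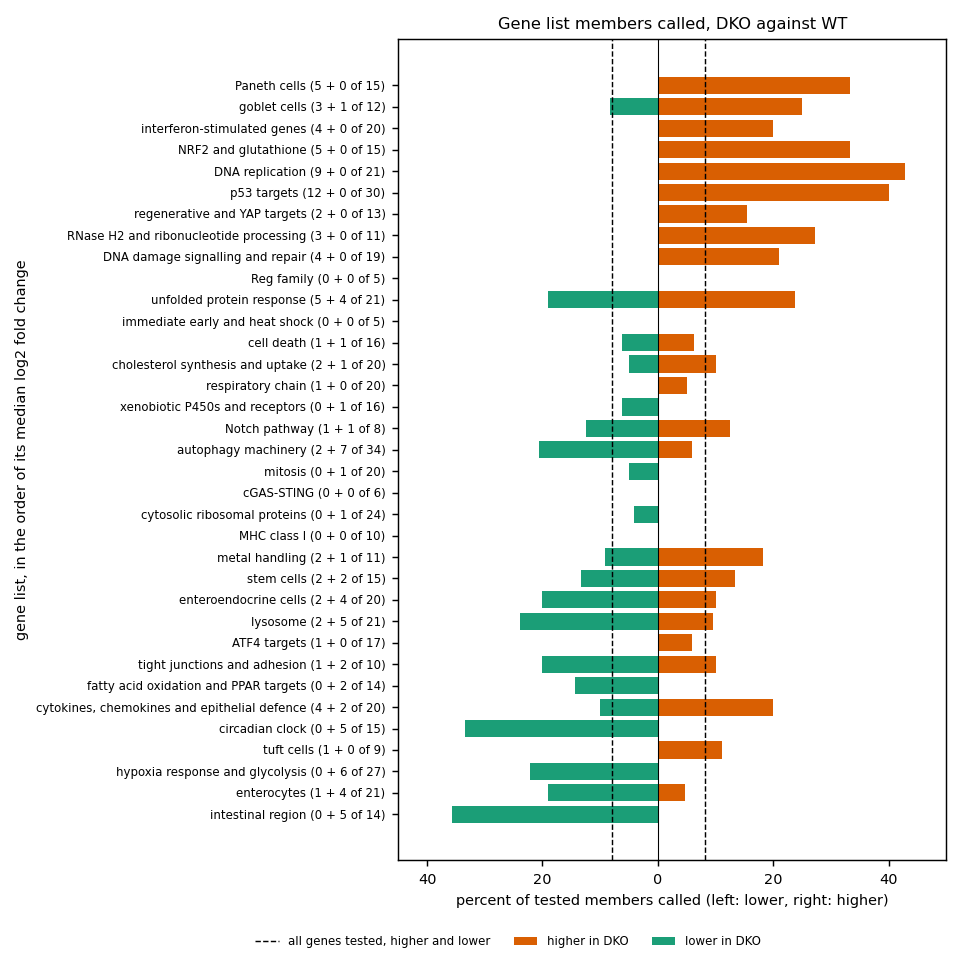
Percent of the tested members of each gene list that were higher (bars to the right) or lower (bars to the left) in DKO than in WT organoids at an adjusted p under 0.05, with lists of 5 or more tested members ordered by their median log2 fold change and dashed lines at 8.1% and 8.01% for all genes. The p53, DNA replication, Paneth cell and NRF2 lists are among those with bars to the right only. The intestinal region, hypoxia and circadian clock lists are among those with bars to the left only. Several further lists, such as DNA damage, interferon and fatty acid oxidation, also have bars in a single direction.

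Of 27 interferon-stimulated genes 20 were tested, and of these 4 rose and none fell, with a median of 0.23. With lane as a covariate 16 were higher, where 666 of all 12804 genes tested were. Within lane 1 15 were higher, where 597 of all genes tested were, with a median of 0.59. Both fits take their difference from DKO libraries 3 and 4 against WT, so they are not separate checks. Interferon response elements are shown for the 3 members with the largest rises and for 2 members without a call. RefSeq promoters were matched for 17 of the 20 genes, and 9 (52.9%) held the element core GAAANNGAA on either strand in the 250 bases before the start, against 2342 of 32851 promoters (7.13%). Here too a gene counted where any of its promoters held the core, whereas the share over all is per promoter. Of these 9 genes, the 3 that rose are Cxcl10, Isg15 and Oas1a, and the other 6 were not called, with log2 fold changes from -0.17 to 0.59. Sequences are from GRCm38.p6 and read 5′ to 3′ on the strand of the gene, and capitals mark the element.
Cxcl10, chr5:92349064-92349132, minus strand: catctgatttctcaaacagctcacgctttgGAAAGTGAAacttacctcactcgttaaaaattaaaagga
Isg15, chr4:156200846-156200926, minus strand: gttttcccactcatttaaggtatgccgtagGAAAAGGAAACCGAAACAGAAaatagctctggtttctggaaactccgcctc
Oas1a, chr5:120907526-120907575, minus strand: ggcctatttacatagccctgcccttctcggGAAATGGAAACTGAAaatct
Ifit1, chr19:34640750-34640843, plus strand: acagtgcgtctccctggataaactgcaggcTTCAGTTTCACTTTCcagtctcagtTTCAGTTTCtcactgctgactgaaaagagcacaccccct
Ifit3, chr19:34583344-34583465, plus strand: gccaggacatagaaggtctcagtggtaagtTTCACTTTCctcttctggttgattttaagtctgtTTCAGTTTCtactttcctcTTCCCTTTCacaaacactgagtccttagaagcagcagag
In Isg15 there are 3 overlapping matches and in Oas1a 2, and the single match of Cxcl10 begins 213 bases before the start. Ifit1 (0.06) and Ifit3 (0.10), neither of them called, hold 3 matches each, in the opposite orientation.

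Cxcl10, the gene of a chemokine that attracts T cells, was at 4.54, 4.57, 4.59 and 4.62 in WT and at 4.74, 5.10, 5.77 and 6.03 in DKO libraries (0.83, SE 0.21, adjusted p = 0.021, 0.15 with pairs). Isg15, a ubiquitin-like protein gene, was at 4.69, 4.75, 4.82 and 4.71 in WT and 4.89, 5.13, 5.67 and 5.91 in DKO libraries (0.66, SE 0.18, adjusted p = 0.028). Oas1a, a sensor gene of double-stranded RNA, was at 6.85, 6.96, 6.93 and 6.79 in WT and 7.26, 7.30, 7.66 and 7.82 in DKO libraries (0.62, SE 0.11, adjusted p = 0.0041, 0.077 with pairs). In all 3 genes the groups did not overlap and DKO libraries 3 and 4, which shared lane 1 with WT, were the higher ones. Rsad2 differed by 0.59 (adjusted p = 0.066), with 1.06 within lane 1, and Ifit1 by 0.06 (adjusted p = 0.90). Without WT library 1 or 2 only 1 of the 20 genes passed, and 2 did without WT library 4. None passed with pairs. The part of lane and of sex, which both differ between the DKO pairs, was not tested.

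**Figure D4:**
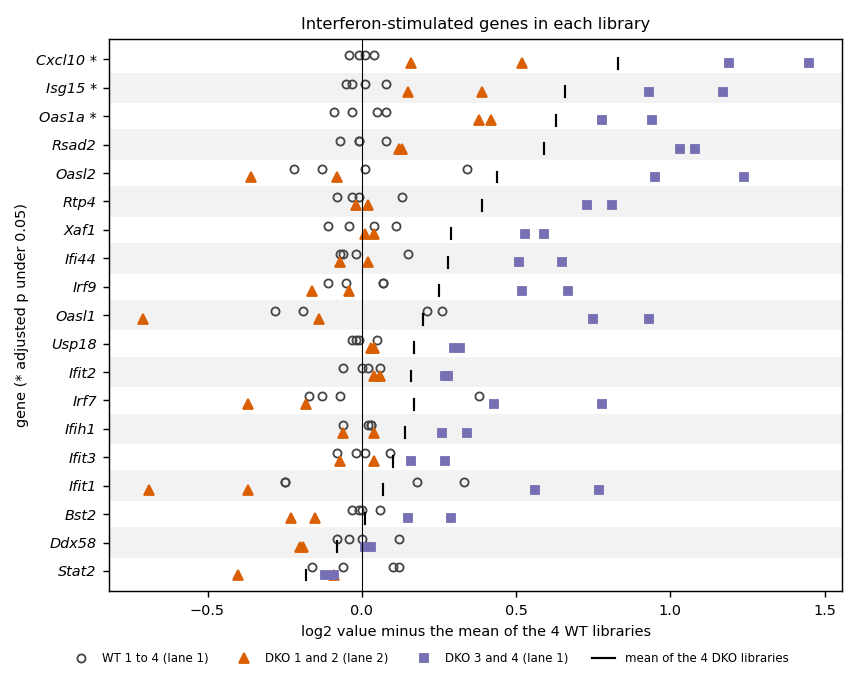
Tested interferon-stimulated genes as log2 value minus the WT mean (x axis) by gene (y axis), with open circles for WT, triangles for DKO libraries 1 and 2, squares for DKO libraries 3 and 4, bars for the DKO mean and an asterisk for an adjusted p under 0.05. For Cxcl10, Isg15 and Oas1a, DKO libraries 3 and 4 lie above DKO libraries 1 and 2, which lie above all WT libraries.

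Against Atg16l1ΔIEC organoids none of the 20 interferon-stimulated genes passed the test in either direction, and within lane 2 none was higher and 7 were lower in DKO organoids, with a median of -0.31. Against Rnaseh2bΔIEC organoids 2 were higher and none was lower, with none left with pairs, and within lane 2 none was higher and 5 were lower. Of all 12804 genes tested, 1058 were lower within lane 2 against Atg16l1ΔIEC and 2092 against Rnaseh2bΔIEC organoids. For Oas1a the difference from Atg16l1ΔIEC (7.45 to 7.73) was -0.08 (-0.32 to 0.16) and for Cxcl10 (4.93 to 5.41) it was 0.24 (-0.22 to 0.70). The cGAS-STING list, the DNA sensing pathway upstream of interferon, had no call among 6 genes, with Cgas at 0.10 and Tmem173, the STING gene, at 0.18. At an adjusted p of 0.17 and 0.28 neither difference passed. Of 10 MHC class I genes none was called, with B2m at -0.01 and H2-K1 at -0.06. Of 3 tested MHC class II genes the loading factor gene H2-DMa fell by 0.39, which was lost without WT library 1 or 2.

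Chemokine and defence genes moved in both directions. Of 20 tested members 4 rose and 2 fell, and the median was -0.08. Ccl9 was at 5.89, 6.19, 6.29 and 6.34 in WT and 7.32, 6.98, 6.85 and 6.69 in DKO libraries (0.78, SE 0.14, adjusted p = 0.0047, 0.084 with pairs), and the related Ccl6 rose by 0.56. The chemokine gene Ccl20, which attracts CCR6-bearing cells, rose by 0.38 and the adhesion molecule gene Icam1 by 0.30. Nos2, the inducible nitric oxide synthase gene, was at 6.64, 6.67, 7.09 and 7.06 in WT and 6.09, 6.33, 6.14 and 6.09 in DKO libraries (-0.70, SE 0.12, adjusted p = 0.0039, 0.055 with pairs). Tnfaip3, which encodes the NF-kappa-B inhibitor A20, fell by 0.37. Among 16 tested cell death genes, Mlkl, the executor of necroptosis, was at 6.41, 6.30, 6.35 and 6.22 in WT and 6.70, 6.80, 6.83 and 6.83 in DKO libraries and rose by 0.47 (SE 0.07, adjusted p = 0.002, 0.071 with pairs). The caspase-8 inhibitor gene Cflar fell by 0.19, a call lost without WT library 1 or 2 or DKO library 1. The kinase genes upstream of MLKL were not called, with Ripk1 at 0.05 and Ripk3 at 0.00. None of 5 tested Reg family genes was called.

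Genes of the NRF2 and glutathione list rose in 5 of 15 tested members and fell in none, with a median of 0.21, and 5 members passed whichever library was left out. Gsta4, a glutathione transferase gene that clears lipid peroxidation products, was at 13.40, 13.30, 13.26 and 13.22 in WT and 13.59, 13.61, 13.71 and 13.68 in DKO libraries (0.35, SE 0.05, adjusted p = 0.0012, 0.029 with pairs). Gpx2, the glutathione peroxidase gene of the gut epithelium, rose by 0.61, Gsta1 by 0.49, Gclc, the rate-limiting enzyme of glutathione synthesis, by 0.39 and G6pdx, the first enzyme of the pentose phosphate pathway, by 0.23. The typical targets Nqo1 (0.00, adjusted p = 0.99) and Hmox1 (-0.08, adjusted p = 0.71) were not called. The level of Gsta4 in DKO organoids differed by -0.09 (-0.19 to 0.02) from Atg16l1ΔIEC and by -0.11 (-0.24 to 0.02) from Rnaseh2bΔIEC organoids, intervals that include 0.

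Of 27 hypoxia response and glycolysis genes 6 fell and none rose, with a median of -0.18. Egln3, the oxygen-sensing prolyl hydroxylase gene, was at 13.48, 13.41, 13.55 and 13.49 in WT and at 12.44, 12.89, 13.20 and 13.26 in DKO libraries (-0.54, SE 0.14, adjusted p = 0.02), a call lost without WT library 1. The collagen hydroxylase gene P4ha1 fell by 0.43, Ankrd37 by 0.42, the glycolytic regulator gene Pfkfb3 by 0.38, the histone demethylase gene Kdm3a by 0.28 and the glycolytic enzyme gene Pgam1 by 0.21. For Egln3, P4ha1, Ankrd37 and Pfkfb3, DKO library 1 was the lowest of the 8. Adm (-0.51, adjusted p = 0.071) and Vegfa (-0.32, adjusted p = 0.21) were not called. With lane as a covariate 3 members were lower and the median was -0.02, and without DKO library 4 9 were lower. None passed with pairs. Against Atg16l1ΔIEC organoids 11 of the 27 were higher and 1 was lower, with 7 and 1 left with pairs. Within lane 2, 7 were higher and 2 lower, with a median of 0.04. Against Rnaseh2bΔIEC organoids 13 were higher and 1 was lower, with 8 and 1 left with pairs. Within lane 2, 10 were higher and 1 lower, with a median of 0.10. Over all libraries, Adm was 1.18 above Atg16l1ΔIEC (7.10 to 7.65, SE 0.18, adjusted p = 0.0011) and 1.25 above Rnaseh2bΔIEC organoids (7.29 and 7.47, SE 0.22, adjusted p = 0.0021).

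Genes of the circadian clock fell in 5 of 15 members and rose in none, with a median of -0.14. They were the clock output gene Dbp (-0.52), the period genes Per3 (-0.38), Per2 (-0.33) and Per1 (-0.23), and the repressor gene Bhlhe40 (-0.28). Per2 was at 10.38, 10.43, 10.34 and 10.34 in WT and 9.89, 10.01, 10.15 and 10.13 in DKO libraries (SE 0.06, adjusted p = 0.0057, 0.09 with pairs). The core activators Arntl (-0.15, adjusted p = 0.43) and Clock (-0.08, adjusted p = 0.35) were not called. The labels give no time of harvest.

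Of 21 unfolded protein response genes 5 rose and 4 fell, with a median of 0.06, and 3 rose and 2 fell without WT library 1 or WT library 2. Sdf2l1, a chaperone complex gene, was at 9.07, 9.06, 9.30 and 9.25 in WT and 9.68, 9.55, 9.57 and 9.64 in DKO libraries (0.44, SE 0.08, adjusted p = 0.0035, 0.072 with pairs), and the folding factor gene Creld2 rose by 0.28. Calr, Dnajc3 and Pdia4, further genes of folding in the endoplasmic reticulum, rose by 0.15, 0.15 and 0.11. The stress sensor gene Ern1, which encodes IRE1 alpha, fell by 0.31, the pro-apoptotic factor gene Ddit3 by 0.52 and the degradation gene Edem1 by 0.16. Xbp1, whose messenger RNA is spliced by IRE1 alpha, was at 12.99, 13.01, 13.08 and 13.06 in WT and 12.80, 12.90, 12.97 and 12.97 in DKO libraries (-0.12, SE 0.04, adjusted p = 0.046). Its call was lost when any 1 WT library or DKO library 1 or 2 was left out, and gene counts do not separate its spliced form. Hspa5, the main chaperone gene, differed by 0.06 (adjusted p = 0.48). Of 17 ATF4 target genes only the cystine transporter gene Slc7a11 was called, higher by 0.68, and this call was lost without WT library 1 or 2 or DKO library 3 or 4.

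For the metabolic and remaining lists, the shares called stand against 16.1% of all genes tested. Of 14 tested fatty acid oxidation genes 2 fell and none rose (14.3% called), with a median of -0.08. Acadm, a medium-chain acyl-CoA dehydrogenase gene, fell by 0.16 (adjusted p = 0.027). It lost its call without WT library 1, WT library 2, DKO library 1 or DKO library 3. Against Rnaseh2bΔIEC organoids, 11 of the 14 were lower in DKO organoids, with a median of -0.41, and 6 were lower with pairs. Of all 12804 genes tested, 1845 were lower in that comparison, and 499 with pairs. Of 20 cholesterol genes 2 rose, with the mevalonate kinase gene Mvk at 0.28, and 1 fell, the sterol transfer gene Stard4, by 0.22. Among 11 metal handling genes (27.3% called) the metallothionein gene Mt1 rose by 0.38, the ferritin gene Fth1 by 0.29 and the zinc importer gene Slc39a4 fell by 0.28. Of these, Mt1 and Slc39a4 lost their calls without WT library 1 or 2 or DKO library 1 or 2. The xenobiotic list had 1 call of 16 (Tiparp, -0.22), the respiratory chain 1 of 20 (Ndufa1, 0.27), the ribosomal protein list 1 of 24 (Rpl23, -0.13) and the tight junction list 3 of 10 (Cldn15 at -0.32 and Cldn7 at -0.16 among them). None of 5 tested immediate early and heat shock genes was called.

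The largest changes fell outside most of these lists. Of the 12 largest rises among genes whose libraries did not overlap, those not yet described were 2210407C18Rik (1.38), the sulfotransferase gene Sult6b2 (1.36), the mucosal scavenger receptor gene Dmbt1 (1.33), the annexin gene Anxa10 (1.02), the adhesion molecule gene Mcam (0.96), the sugar phosphate exchanger gene Slc37a2 (0.94), the phosphatase gene Ptp4a3 (0.92) and Vsig1 (0.84). 2210407C18Rik was at 10.99, 11.03, 10.55 and 10.51 in WT and at 11.66, 11.67, 12.75 and 12.53 in DKO libraries (SE 0.27, adjusted p = 0.0067, 0.034 with pairs). Dmbt1 was at 11.82, 12.05, 11.69 and 11.68 in WT and 12.25, 12.33, 13.96 and 14.02 in DKO libraries, so that most of its difference lay in DKO libraries 3 and 4, and it was not called when any 1 WT library or either of these was left out. Sult6b2 was at 7.64, 7.55, 6.79 and 6.83 in WT and 8.53, 8.41, 8.70 and 8.62 in DKO libraries (SE 0.17, adjusted p = 0.00074, 0.0084 with pairs). Sult6b2, Slc37a2, Ptp4a3 and 2210407C18Rik passed with pairs, with Akp3 and Ano3.

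**Figure D5:**
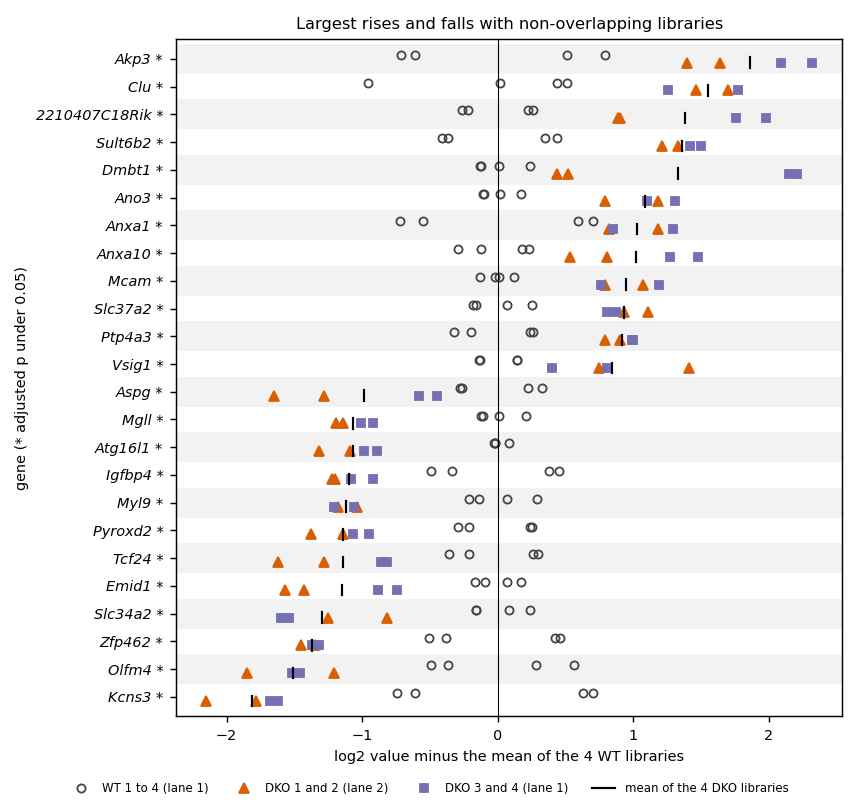
The 12 largest rises and 12 largest falls among genes past the threshold whose libraries did not overlap, as log2 value minus the WT mean (x axis) by gene (y axis), with open circles for WT, triangles for DKO libraries 1 and 2, squares for DKO libraries 3 and 4 and bars for the DKO mean. Akp3 leads the rises at 1.86 and Kcns3 the falls at -1.80.

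Of the 12 largest falls, Atg16l1 and Olfm4 have been described. Kcns3, a modulatory potassium channel subunit gene, was at 8.79, 8.72, 7.35 and 7.48 in WT and at 5.94, 6.31, 6.41 and 6.47 in DKO libraries (-1.80, SE 0.37, adjusted p = 0.0081, 0.044 with pairs), which is 3.49-fold lower. Zfp462, a zinc finger gene, was at 8.88, 8.84, 8.04 and 7.91 in WT and 6.97, 7.07, 7.10 and 7.05 in DKO libraries (-1.37, SE 0.23, adjusted p = 0.0029, 0.02 with pairs). For both genes WT libraries 1 and 2 were above WT libraries 3 and 4, and all were above the DKO libraries. Slc34a2, the sodium-phosphate cotransporter gene, was at 8.62, 8.62, 9.02 and 8.86 in WT and 7.53, 7.96, 7.18 and 7.24 in DKO libraries (-1.30, SE 0.20, adjusted p = 0.0018, 0.024 with pairs). The others were Emid1 (-1.15), the transcription factor gene Tcf24 (-1.14), Pyroxd2 (-1.13), the myosin light chain gene Myl9 (-1.12), the insulin-like growth factor binding protein gene Igfbp4 (-1.11), the monoacylglycerol lipase gene Mgll (-1.06) and Aspg (-1.0). Emid1, Pyroxd2, Igfbp4 and Mgll passed with pairs. Aspg was not called without WT library 1 or 2 or DKO library 1 or 2.

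Some of these genes differed from both single knockouts as well as from WT. All were picked by the size of their difference between DKO and WT. Their comparisons with the single knockouts reuse the same DKO libraries, so they are not separate support. Zfp462 was at 7.78 to 8.63 in Atg16l1ΔIEC and at 8.19 and 8.38 in Rnaseh2bΔIEC organoids, neither of which differed from WT by the test (-0.19 and -0.14). The DKO level differed by -1.18 from the former (SE 0.23, adjusted p = 0.0034) and by -1.23 from the latter (SE 0.28, adjusted p = 0.0069). Pyroxd2 differed by -1.06 from each single knockout. Igfbp4 differed by -1.09 from Atg16l1ΔIEC and by -1.34 from Rnaseh2bΔIEC organoids. Slc34a2 differed by -1.08 and -1.74 from them, and 2210407C18Rik by 1.72 and 2.05. All of these differences passed with pairs, in which the Rnaseh2bΔIEC libraries form a single pair. Other genes passed against only 1 of the single knockouts. Sult6b2 differed from Atg16l1ΔIEC by 0.92 (adjusted p = 0.0025) and not detectably from Rnaseh2bΔIEC organoids (-0.12, -0.57 to 0.32), as did Mcam (1.0 and -0.20, -0.49 to 0.09) and Ptp4a3 (0.78 and -0.02, -0.33 to 0.30). Slc37a2 differed by 0.84 from Atg16l1ΔIEC and by -0.80 from Rnaseh2bΔIEC organoids and passed against both.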

How the data were processed

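The authors prepared stranded mRNA libraries (TruSeq) from total RNA of organoids and sequenced them as single reads of 50 bases on a HiSeq3000. Reads were trimmed with cutadapt, aligned to GRCm38 with TopHat2 and counted with HTSeq, and DESeq2 was used by the authors. Tool versions are not given in the sources used here. The authors deposited 1 table of log2 values for 18781 genes in 14 libraries, from -2.13 to 17.45, with 16.9% of values below 0. The transformation is not named. Low genes vary far less between libraries than high genes on this scale, so the change of a low gene reads smaller than it is. Read totals cannot be recovered, so the depth is unknown, no count model was run and no counting interval is given.

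All 14 columns were mapped to samples by name. Genes with a mean of at least 3.3 (as a limit between 3.319 and 3.321) were tested with limma 3.58.1 in R 4.3.3 (lmFit, contrasts.fit and eBayes with trend). The fit took in the 14 libraries and 4 genotypes without covariates, and p-values were adjusted by Benjamini-Hochberg over 12804 genes at 0.05. Intervals are 95%. Exact permutation tests were two-sided. Library pairs 1 and 2, and 3 and 4, were fitted as a random effect (duplicateCorrelation, consensus correlation 0.645). The fit paired the single-knockout libraries in the same way, though correlations within pairs were examined for WT and DKO only. The Rnaseh2bΔIEC libraries formed a single pair. The design had assumed linear values with a pseudocount; as the values are already log2, none was added, and pseudocounts of 1 and 5 on back-transformed values served as alternatives. The method was tested on simulated data in which libraries were drawn independently. That simulation held no library pairs, so it does not show how the calls hold where the libraries of a pair deviate together.

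Gene lists, members and comparisons were chosen with earlier results of these data known. The genes named are the targeted genes and those of the study's text, the first 2 members of each list with up to 4 others of largest change past the threshold, the 12 largest rises and falls without overlap, and genes within 1 Mb of a targeted gene. Further list members past the threshold were added after their values were seen. Of 646 list entries 627 matched a deposited gene. Symbols matched 99.7% of identifiers, and promoters are from RefSeq on GRCm38.p6. Alternatives were other pseudocounts, filters, scalings and variance models, only the groups compared, lane as a covariate or a single lane, the replicate number as a block, pair averages, omission of X and Y genes, and leaving out each library. Leaving out whole pairs was chosen after seeing the data. Results for some list members are not reported here.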

Additional observations from a re-analysis of the deposited data

Results flagged for a closer look

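In 17 of 416 groups of 4 libraries, over 208 named genes, 1 library stood apart from the other 3 by Dixon's criterion at 95%, which chance meets in about 1 in 20 groups. In WT organoids, library 1 was the lowest for Atf4 (13.18) and the highest for Mki67 (13.14), Psap (13.63) and Rrm2 (11.22). WT library 2 was the highest for Atg16l1 (9.54). WT library 3 was the lowest for Atg2a (9.42) and the highest for Cd74 (3.57). WT library 4 was the lowest for Atm (9.37) and the highest for Defa26 (6.03) and Fanca (9.20). In DKO organoids, library 1 was the highest for the alpha-defensin genes Defa17 (9.87) and Defa24 (13.71) and the lowest for Tiparp (9.96). DKO library 2 was the highest for Hoxb7 (3.84) and Mroh2a (4.90). DKO library 3 was the lowest for the tuft cell channel gene Trpm5 (7.05), and DKO library 4 was the lowest for the DNA glycosylase gene Neil2 (4.22).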

How the results depend on the processing

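The number of genes changed between DKO and WT organoids (2063) was 1260 with only the groups compared, 1311 within lane 1, 85 with pairs as a random effect and 0 by limma with pair averages (1311 at an unadjusted p under 0.05). Leaving out 1 library gave 1001 (WT library 2) to 2074 (DKO library 4). Leaving out a whole pair, chosen after seeing the data, gave 498 without WT 1 and 2, 1347 without DKO 1 and 2 and 3440 without DKO 3 and 4. Against Atg16l1ΔIEC organoids (3218) the count was 2066 with only the groups compared, 2073 within lane 2, 478 with pairs as a random effect, 0 with pair averages (1943 at an unadjusted p under 0.05), 1827 to 3470 leaving out 1 library (1827 and 1832 without Atg16l1ΔIEC library 3 and 4) and 724 without both of these. Against Rnaseh2bΔIEC organoids (3262) it was 692 with pairs as a random effect, 0 with pair averages (2044 at an unadjusted p under 0.05) and 757 to 3288 leaving out 1 library (1337 and 757 without Rnaseh2bΔIEC library 1 and 2). With total scaling 2377 of 3681 genes were higher than in Rnaseh2bΔIEC organoids (64.6%, against 43.4%). With pair averages Atg16l1 (-1.07) and Rnaseh2b (-0.73) had an adjusted p of 0.34. These fits have fewer samples.

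The replicate number did not mark pairs across genotypes: same-numbered WT and DKO libraries correlated at -0.07, 0.16, 0.11 and 0.02, and 2 of 4 DKO libraries correlated best with their own number. With the number as a replicate block 2125 genes changed against WT, 3355 against Atg16l1ΔIEC and 2994 against Rnaseh2bΔIEC organoids. Of 129 named genes past the threshold besides the targeted genes, 17 lost their call with the block, 43 with lane as a covariate, 44 within lane 1, 107 with pairs as a random effect, 129 with pair averages, and 48 and 49 without WT library 1 and 2. None reversed in direction under any alternative. The medians of 20 of 39 gene lists moved with lane as a covariate. The depth is unknown, and changes of low genes are understated.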
